A study of Mus musculus with 8 samples.

Results

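The genes described here are 34 genes of the NRF2 antioxidant and detoxification programme in mouse liver, taken from the deposited table of 55487 genes by symbol, with the glutathione transferases left out. All 34 were in the table and 33 passed the filter on low counts. The remaining one, Slc7a11, had counts of 0 in every WT library, of 0 and 4 in the Ercc1 libraries, and of 4 and 1 in the NemoDK_Ercc1 libraries. The rule takes the genes by name and uses no measured value, but the members were chosen with earlier results of these data known. The study's title names NF-kB activation by endogenous DNA damage in senescence and aging. Livers of 8 mice labelled female were compared in 3 genotype groups. WT mice (n = 4) were 10.7 to 12.3 weeks old. Mice with the genotype Ercc1 -/D (n = 2), called Ercc1 here, carried a null and a hypomorphic D allele of the DNA repair endonuclease gene Ercc1 and were 15.1 and 13.7 weeks old. Mice with the genotype NEMO DK; Ercc1-/D (n = 2), called NemoDK_Ercc1, carried the same Ercc1 alleles and a Nemo allele that the labels name DK without explaining it. Both were 11.8 weeks old. Nemo, listed as Ikbkg, encodes a regulatory subunit of the IKK kinase, upstream of NF-kB. Every library is from a different mouse. The labels give no promoter or cell type for any allele, no strain, and no feeding state or time of collection.

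NRF2, the product of Nfe2l2, is a transcription factor that is made continuously and destroyed at once while the adaptor KEAP1 holds it to a CUL3 ubiquitin ligase. Electrophiles and oxidants modify cysteines of KEAP1, NRF2 then accumulates, pairs with a small MAF protein and binds antioxidant response elements near its target genes. In liver these targets make glutathione, keep thioredoxin and peroxiredoxins reduced, supply NADPH, reduce quinones and carbonyls, open epoxides, and provide the glucuronic acid that is attached to xenobiotics. Superoxide dismutases, catalase and glutathione peroxidases remove oxidants directly and depend on NRF2 to differing degrees.

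Libraries held 21556570 to 27812478 counts. Levels are CPM, the counts of a gene relative to the library total, scaled with TMM factors, which correct for differences in RNA composition and were 0.890 to 0.932 for WT and 1.09 to 1.10 for the mutant libraries. Changes are log2 fold changes ± standard error from an edgeR quasi-likelihood fit of all 8 libraries, with p adjusted over the 15598 genes tested and a threshold of 0.05. WT library 3 stood apart: its Xist count was 0, that of each other library 9331 to 15744, and its Y-linked genes reached 3087 counts where others had 0 to 10, at odds with its label of a female mouse. Ercc1 transcript, a check of the genotype labels, ranged from 2.57 to 5.04 CPM over WT livers and from 1.49 to 1.87 CPM over the 4 mutant livers.

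The programme rose in part in Ercc1 livers: 14 of 33 members tested were called higher and 0 lower. Over all genes tested 20.8% were called, 11.3% higher and 9.5% lower. The 14 included Nfe2l2 itself, 3 glutathione genes (Gclc, Gss, Gsr), Txnrd1 and Srxn1 of the thioredoxin system, and Ugdh. The others were 4 genes that act on quinones, carbonyls, epoxides and aldehydes (Nqo1, Cbr3, Ephx1, Aox1), the growth inhibitor gene Osgin1, and the glutathione peroxidases Gpx2 and Gpx4. The median log2 fold change of the 33 members was 0.40, beside a median of -0.0010 over all genes. In bulk liver RNA a change in the number of cells of a type and a change in RNA per cell cannot be told apart. In NemoDK_Ercc1 against WT 9 members were called higher and 0 lower, where 18% of all genes were called, 10.6% higher and 7.4% lower. Those 9 were Gclc, Srxn1, Ugdh, Nqo1, Cbr3, Ephx1, Nfe2l2, Gpx2 and Gpx4. This comparison shares its 4 WT libraries with the first. Every Ercc1 library lay above every WT library for 17 of 33 members, as for 21.3% of all genes, and below for 4, also 21.3% of all genes. For NemoDK_Ercc1 the members were 14 and 5, beside 24.8% and 22.1% of all genes. The median of the 33 members was 0.12, beside 0.0034 over all genes.

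Of the 14 calls in Ercc1, 8 held whichever single library was left out: Gclc, Srxn1, Ugdh, Cbr3, Ephx1, Nfe2l2, Gpx2 and Gpx4. Without Ercc1 library 1 the count fell to 8, and without WT library 3 it was 14. The Ercc1 mice were older than every other mouse. With age as a covariate 0 of the 14 were called (lowest adjusted p = 0.0769), while 14 of 14 estimates stayed positive and their median standard error went from 0.17 to 0.42. Under the same covariate 24 of all genes were called higher and 17 lower. The NemoDK_Ercc1 mice lay within the WT age range, and with age as a covariate all 9 of their calls held. Their calls of Gclc, Gpx2 and Gpx4 each depended on single libraries, as given below for each gene.

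**Figure D1:**
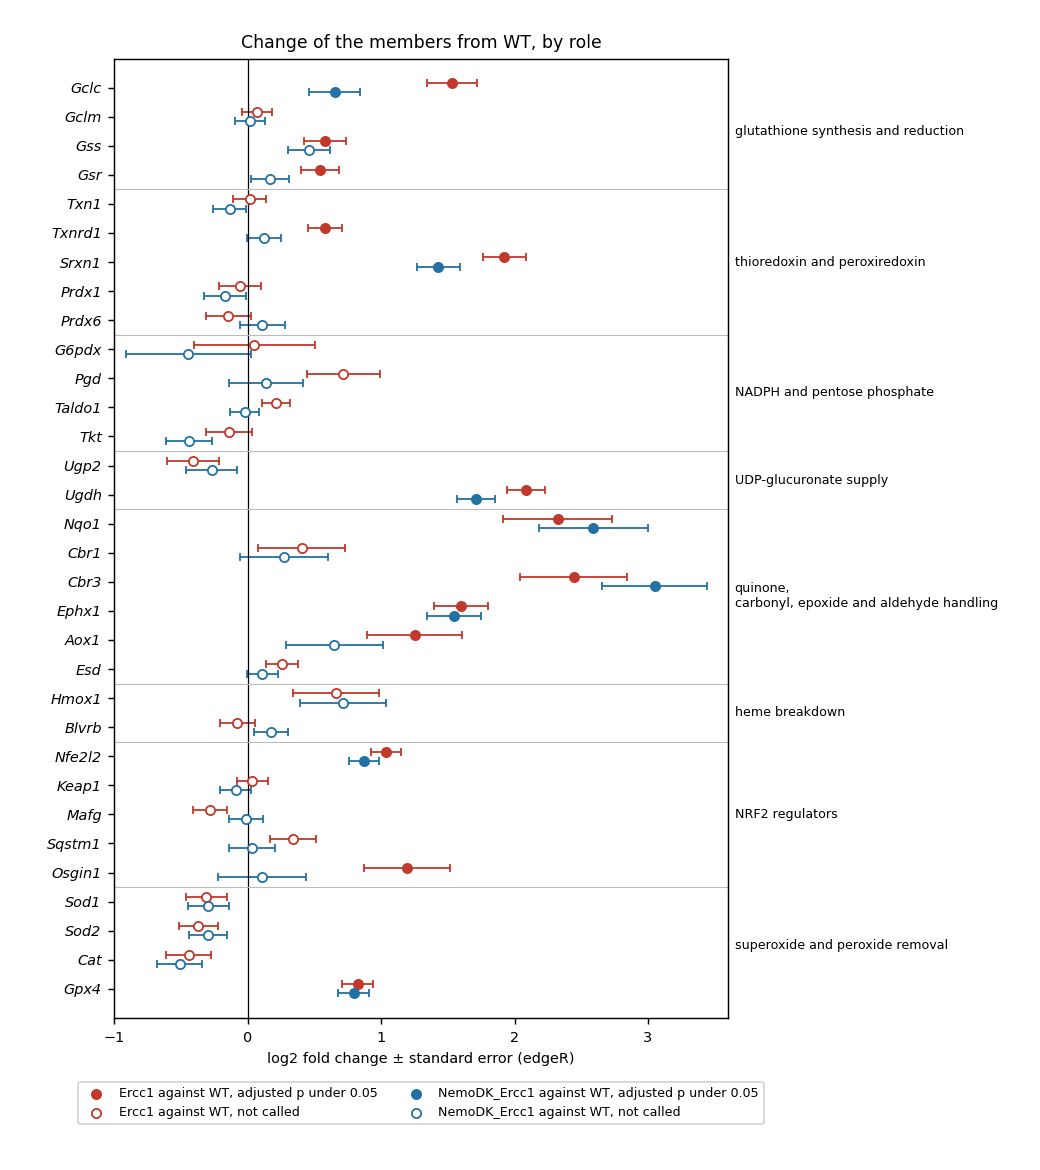
Log2 fold change ± standard error (edgeR) of 32 members against WT, in Ercc1 (red) and NemoDK_Ercc1 (blue), grouped by role; filled points had an adjusted p under 0.05. Gpx2 (0 counts in WT) and Slc7a11 (not tested) are not drawn. The furthest points to the right are Cbr3, Nqo1 and Ugdh, and no point left of 0 is filled.

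The promoters of the members were searched for the letters of the antioxidant response element, TGACNNNGC on either strand, from 250 bases before to 50 after each start site listed in RefSeq (GRCm38.p6). Of 34 members 30 had a promoter in that table (not Gclc, Gsr, Hmox1 or Prdx6). The letters were found for 10 of 30 members (33.3%, exact 95% interval 17.3 to 52.8%, counting error only), beside 3781 of 27025 genes (13.99%). Called members held them in 4 of 12 cases, and members not called higher in Ercc1 in 6 of 18 (Gclm, Prdx1, Pgd, Mafg, Sod1 and G6pdx). In another form, which needs A or G before the core and also allows TGAG, the letters were found for 6 of 30 members (20.0%), beside 15.7% of genes, and for 4 of 12 called and 2 of 18 other members. The first letters of the element are shared with the AP-1 site (TGACTCA or TGAGTCA). Of the 11 matches 1, in Prdx1, holds a whole AP-1 site. The Srxn1 window printed below also holds TGAGTCA outside its match, in one place as TGAGTCAGC, which neither searched form takes up. A match is a description of these letters and not a measured binding site. All 4 called members with a match, Ugdh, Srxn1, Nfe2l2 and Txnrd1, are shown, in order of adjusted p in Ercc1 against WT. The windows are chr5:65435793-65436092 on the minus strand, chr2:152105274-152105573 on the plus strand, chr2:75704614-75704913 on the minus strand, and chr10:82858956-82859255 on the plus strand, which is 1 of 3 Txnrd1 start sites. Each is written 5′ to 3′ along the gene's strand with the matched letters in capitals.
Ugdh promoter: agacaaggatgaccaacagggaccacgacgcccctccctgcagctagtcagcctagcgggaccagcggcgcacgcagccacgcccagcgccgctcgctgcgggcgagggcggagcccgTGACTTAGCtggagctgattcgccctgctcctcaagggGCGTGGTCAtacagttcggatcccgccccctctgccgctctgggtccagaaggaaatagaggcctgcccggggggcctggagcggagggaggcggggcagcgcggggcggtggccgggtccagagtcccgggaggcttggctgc
Srxn1 promoter: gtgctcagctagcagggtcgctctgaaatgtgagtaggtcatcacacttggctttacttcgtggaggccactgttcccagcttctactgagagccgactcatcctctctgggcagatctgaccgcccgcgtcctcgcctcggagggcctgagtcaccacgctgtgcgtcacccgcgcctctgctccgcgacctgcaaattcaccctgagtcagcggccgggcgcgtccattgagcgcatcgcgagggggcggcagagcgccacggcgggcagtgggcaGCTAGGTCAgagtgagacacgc
Nfe2l2 promoter: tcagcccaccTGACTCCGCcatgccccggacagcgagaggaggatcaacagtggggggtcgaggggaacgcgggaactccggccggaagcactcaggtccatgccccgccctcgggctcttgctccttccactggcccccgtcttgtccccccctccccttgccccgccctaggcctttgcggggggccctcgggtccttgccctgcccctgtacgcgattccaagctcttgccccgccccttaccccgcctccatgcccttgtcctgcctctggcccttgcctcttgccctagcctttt
Txnrd1 promoter: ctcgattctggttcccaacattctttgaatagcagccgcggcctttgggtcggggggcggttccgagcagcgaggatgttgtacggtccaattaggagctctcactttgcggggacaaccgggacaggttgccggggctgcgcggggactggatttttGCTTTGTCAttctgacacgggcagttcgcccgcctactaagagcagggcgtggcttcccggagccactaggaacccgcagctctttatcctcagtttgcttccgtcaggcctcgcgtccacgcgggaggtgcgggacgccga
The Ugdh window holds a match on each strand, starting 132 and 94 bases before the start site. The Txnrd1 match starts 92 bases before it, the Nfe2l2 match 240 bases before it, and the Srxn1 match 28 bases after it.

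Among the regulators, the gene for NRF2 itself rose and the gene for its inhibitor was not called. Nfe2l2 (ENSMUSG00000015839, chr2:75675513-75704641) was 86.1, 84.8, 79.2 and 87.8 CPM in WT, 182 and 164 CPM in Ercc1, and 165 and 144 CPM in NemoDK_Ercc1. All 4 mutant libraries lay above every WT library, and the WT libraries lay close together. Its change was 1.04 ± 0.11 (adjusted p = 9.34e-04) in Ercc1 and 0.87 ± 0.11 (adjusted p = 0.00213) in NemoDK_Ercc1. Keap1, the adaptor that delivers NRF2 for destruction, was 67.8, 69.6, 61.7 and 65.6 CPM in WT, 74.3 and 61.1 CPM in Ercc1, and 60.4 and 63.8 CPM in NemoDK_Ercc1. Its groups overlapped, with changes of 0.034 ± 0.11 (adjusted p = 0.859) and -0.091 ± 0.11 (adjusted p = 0.621). Of its 4693 exon bases 510 overlap a gene on the other strand, and although the kit named in the labels keeps strand, the strand setting of the counting is not given in the sources used here.

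Mafg, a small MAF partner of NRF2, was 121, 157, 133 and 141 CPM in WT, 114 and 112 CPM in Ercc1, and 138 and 134 CPM in NemoDK_Ercc1. Both Ercc1 libraries lay below the WT range and both NemoDK_Ercc1 libraries within it, with changes of -0.28 ± 0.13 (adjusted p = 0.153) and -0.016 ± 0.13 (adjusted p = 0.946), neither called. Sqstm1, which encodes p62, an autophagy receptor that can sequester KEAP1, was 444, 290.4, 351 and 369 CPM in WT, 450.0 and 470.0 CPM in Ercc1, and 395 and 349.9 CPM in NemoDK_Ercc1. Its change was 0.34 ± 0.17 (adjusted p = 0.192) in Ercc1 and 0.033 ± 0.17 (adjusted p = 0.916) in NemoDK_Ercc1, not called except in Ercc1 with library size alone (0.61, adjusted p = 0.0273). Of its 3356 exon bases 580 overlap Mrnip on the other strand. Osgin1 (ENSMUSG00000074063, chr8:119434124-119446256), an oxidative stress-induced growth inhibitor, was 102, 178, 271 and 209 CPM in WT, 413 and 457 CPM in Ercc1, and 244 and 166 CPM in NemoDK_Ercc1. Only the Ercc1 libraries lay above the WT range, and the NemoDK_Ercc1 libraries lay within it. The rise in Ercc1 was 1.19 ± 0.32 (adjusted p = 0.0323), which was not called with WT mouse 2, WT mouse 4, Ercc1 mouse 1 or Ercc1 mouse 2 omitted (1.12 to 1.26, adjusted p 0.0565 to 0.134), and the change in NemoDK_Ercc1 was 0.11 ± 0.33 (adjusted p = 0.851).

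The enzymes that handle quinones, carbonyls and epoxides held the largest fold changes among members with counts in every WT library. Nqo1 (ENSMUSG00000003849, chr8:107388225-107403206), the quinone reductase that is the classic NRF2 target, was 17.1, 11.4, 4.37 and 11.9 CPM in WT, 70.6 and 41.4 CPM in Ercc1, and 63.2 and 71.6 CPM in NemoDK_Ercc1. WT library 3 was the lowest and all mutant libraries were above the highest WT library. The rise was 2.32 ± 0.41 (adjusted p = 0.00626) in Ercc1, which ended with Ercc1 mouse 1 omitted (1.89, adjusted p = 0.0624), and 2.59 ± 0.41 (adjusted p = 0.00475) in NemoDK_Ercc1. Without WT library 3 these were 2.08 (adjusted p = 0.00134) and 2.32 (adjusted p = 8.87e-04). Cbr3 (ENSMUSG00000022947, chr16:93683215-93690990), a carbonyl reductase, was scarce in every group, at 0.533, 0.453, 0.262 and 0.193 CPM in WT, 1.47 and 2.41 CPM in Ercc1, and 2.66 and 3.26 CPM in NemoDK_Ercc1. These levels rest on 5 to 11 counts in each WT library and 40 to 81 in each mutant library, with no overlap. It rose by 2.44 ± 0.40 (adjusted p = 0.00469) in Ercc1 and 3.05 ± 0.39 (adjusted p = 0.00211) in NemoDK_Ercc1. Its neighbour on the chromosome, Cbr1, was far more abundant and not called: 122, 149.6, 61.9 and 150.1 CPM in WT, 193 and 127 CPM in Ercc1, and 138 and 154 CPM in NemoDK_Ercc1. WT library 3 was again the lowest for Cbr1 and both mutant groups overlapped WT, with changes of 0.40 ± 0.33 (adjusted p = 0.412) and 0.27 ± 0.33 (adjusted p = 0.603).

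Ephx1 (ENSMUSG00000038776, chr1:180976210-181020904), the microsomal epoxide hydrolase, was the most abundant of the called members per kilobase of exon in WT, at 129.8 CPM per kb in WT, 394 in Ercc1 and 379.7 in NemoDK_Ercc1. By library it was 267, 179, 279 and 287 CPM in WT, 662 and 874 CPM in Ercc1, and 763 and 718 CPM in NemoDK_Ercc1. The mutant libraries lay far above the WT range and overlapped each other. It rose by 1.60 ± 0.20 (adjusted p = 0.00168) and 1.55 ± 0.20 (adjusted p = 0.00218). Aox1 (ENSMUSG00000063558, chr1:58029931-58106413), an aldehyde oxidase, was 49.4, 31.1, 97.7 and 63.9 CPM in WT, 121 and 167 CPM in Ercc1, and 98.7 and 91.3 CPM in NemoDK_Ercc1. WT libraries spread widely, and NemoDK_Ercc1 library 2 lay below WT library 3. The rise in Ercc1 was 1.25 ± 0.36 (adjusted p = 0.0398) and ended with WT mouse 1, WT mouse 4, Ercc1 mouse 1, Ercc1 mouse 2, NemoDK_Ercc1 mouse 1 or NemoDK_Ercc1 mouse 2 omitted (1.0 to 1.46, adjusted p 0.0656 to 0.204). In NemoDK_Ercc1 the change was 0.65 ± 0.36 (adjusted p = 0.243) and was called with WT mouse 3 omitted (0.98, adjusted p = 0.0346). Esd, an esterase that acts in formaldehyde detoxification, was 209.7 to 228 CPM in WT, 238 to 278 in Ercc1 and 228 to 239 in NemoDK_Ercc1, with changes of 0.25 ± 0.12 (adjusted p = 0.160) and 0.11 ± 0.12 (adjusted p = 0.556). Esd was called with library size alone, at 0.52 (adjusted p = 0.0130) and 0.38 (adjusted p = 0.0468).

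Of the 2 genes that supply UDP-glucuronate, the second enzyme rose and the first was not called. Ugdh (ENSMUSG00000029201, chr5:65413221-65435949), which oxidises UDP-glucose to UDP-glucuronate, was 81.8, 74.6, 86.2 and 96.4 CPM in WT, 391 and 329 CPM in Ercc1, and 297 and 259 CPM in NemoDK_Ercc1. The lowest mutant library held more than the highest WT library by a wide margin, and both Ercc1 libraries lay above both NemoDK_Ercc1 libraries. The rise was 2.09 ± 0.14 (adjusted p = 1.29e-04) in Ercc1 and 1.71 ± 0.14 (adjusted p = 2.85e-04) in NemoDK_Ercc1, and both calls held with any library left out. Ugp2, which makes the UDP-glucose it uses, was 458, 321, 517 and 399 CPM in WT, 293 and 343 CPM in Ercc1, and 359.7 and 343 CPM in NemoDK_Ercc1. Its groups overlapped, with changes of -0.41 ± 0.19 (adjusted p = 0.165) and -0.27 ± 0.19 (adjusted p = 0.361). On the scale of CPM per kb Ugp2 was 138 and Ugdh 12.6 in WT, against 104 and 53.3 in Ercc1.

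In the glutathione arm, the catalytic subunit of the first enzyme rose while its partner subunit did not pass the test. Gclc (ENSMUSG00000032350, chr9:77754535-77794485), the catalytic subunit of glutamate-cysteine ligase, was 239.8, 203, 234 and 220.2 CPM in WT, 572 and 724 CPM in Ercc1, and 429.7 and 274 CPM in NemoDK_Ercc1. Both mutant groups lay above WT, and both Ercc1 libraries lay above both NemoDK_Ercc1 libraries. The rise was 1.53 ± 0.19 (adjusted p = 0.00151) in Ercc1 and 0.65 ± 0.19 (adjusted p = 0.0469) in NemoDK_Ercc1, where the call ended with WT mouse 1, WT mouse 2, WT mouse 4, Ercc1 mouse 1, Ercc1 mouse 2 or NemoDK_Ercc1 mouse 1 omitted (0.29 to 0.68, adjusted p 0.0554 to 0.461). Gclm, the modifier subunit, was 170.1, 174, 178 and 196 CPM in WT, 194 and 183 CPM in Ercc1, and 184 and 179.6 CPM in NemoDK_Ercc1. Its libraries formed 1 narrow range, and the changes were 0.069 ± 0.11 (adjusted p = 0.697) and 0.017 ± 0.11 (adjusted p = 0.933). The ratio of Gclc to Gclm counts was 1.13 to 1.41 over WT livers, 2.95 and 3.96 for Ercc1, then 2.34 and 1.53 for NemoDK_Ercc1.

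Gss (ENSMUSG00000027610, chr2:155563181-155592810), glutathione synthetase, was 61.8, 64.8, 71.8 and 90.2 CPM in WT, 114 and 102 CPM in Ercc1, and 100.1 and 98.5 CPM in NemoDK_Ercc1. All mutant libraries lay above WT, although WT library 4 came close to them. The rise in Ercc1 was 0.58 ± 0.16 (adjusted p = 0.0325) and ended with WT mouse 1, WT mouse 2, Ercc1 mouse 1, Ercc1 mouse 2, NemoDK_Ercc1 mouse 1 or NemoDK_Ercc1 mouse 2 omitted (0.49 to 0.65, adjusted p 0.0594 to 0.183). In NemoDK_Ercc1 the change was 0.46 ± 0.16 (adjusted p = 0.0743) and was called with WT mouse 4 omitted (0.59, adjusted p = 0.0230). Of 5915 exon bases of Gss 1102 overlap genes on the other strand. Gsr (ENSMUSG00000031584, chr8:33652523-33698163), glutathione reductase, was 64.6, 46.9, 59.5 and 63.3 CPM in WT, 91.2 and 78.9 CPM in Ercc1, and 65.3 and 66.0 CPM in NemoDK_Ercc1. The Ercc1 libraries lay above all others, and the NemoDK_Ercc1 libraries just above the highest WT library. The rise in Ercc1 was 0.54 ± 0.14 (adjusted p = 0.0300) and ended with Ercc1 mouse 1, Ercc1 mouse 2, NemoDK_Ercc1 mouse 1 or NemoDK_Ercc1 mouse 2 omitted (0.43 to 0.64, adjusted p 0.0586 to 0.189), and the change in NemoDK_Ercc1 was 0.17 ± 0.14 (adjusted p = 0.460). Slc7a11, the cystine transporter that feeds glutathione synthesis in many cultured cells, was close to absent from these livers, as its counts above show.

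In the thioredoxin arm, the repair and reductase genes rose in Ercc1 and the abundant peroxiredoxins were not called. Srxn1 (ENSMUSG00000032802, chr2:152105516-152111376), sulfiredoxin, which repairs overoxidised peroxiredoxins, was 41.7, 30.4, 35.9 and 44.2 CPM in WT, 158 and 131 CPM in Ercc1, and 107 and 97.9 CPM in NemoDK_Ercc1. The 3 groups did not overlap, with Ercc1 highest and WT lowest. The rise was 1.92 ± 0.16 (adjusted p = 3.04e-04) in Ercc1 and 1.43 ± 0.16 (adjusted p = 0.00113) in NemoDK_Ercc1, and both calls held with any library left out. Txnrd1 (ENSMUSG00000020250, chr10:82833951-82897712), the cytosolic thioredoxin reductase, was 145, 149, 139 and 147 CPM in WT, 243 and 189 CPM in Ercc1, and 156 and 159 CPM in NemoDK_Ercc1. The WT libraries were tightly grouped, the NemoDK_Ercc1 libraries lay just above them and the Ercc1 libraries higher. The rise in Ercc1 was 0.58 ± 0.13 (adjusted p = 0.0147) and ended with Ercc1 mouse 1 omitted (0.38, adjusted p = 0.122), and the change in NemoDK_Ercc1 was 0.12 ± 0.13 (adjusted p = 0.540).

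Txn1, cytosolic thioredoxin and the substrate of that reductase, was 161 to 189 CPM in WT, 165 to 189 in Ercc1 and 159.7 in both NemoDK_Ercc1 libraries. Prdx1, a peroxiredoxin, was 924 to 1245, 971 to 1182 and 992 to 996 CPM in the same order, and Prdx6 was 529 to 742, 547 to 554 and 591 to 722 CPM. None of the 3 was called against WT, with changes between -0.17 and 0.11. Prdx1 was the second most abundant member per kilobase of exon in WT (368 CPM per kb), after Cat (1095), and Srxn1 and Txnrd1 were at 13.5 and 20.5 CPM per kb.

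No member of the pentose phosphate pathway, which regenerates NADPH, was called in the main fit in either mutant group. The main fit used edgeR, TMM scaling, the filter on low counts and all 8 libraries. G6pdx, the first enzyme of the pathway, was low at 14.6, 7.71, 4.98 and 3.90 CPM in WT, 7.26 and 8.79 CPM in Ercc1, and 5.42 and 5.97 CPM in NemoDK_Ercc1. WT library 1 was the highest of all, and the groups overlapped. Of its 3080 exon bases 418 overlap Ikbkg on the other strand. Pgd, 6-phosphogluconate dehydrogenase, was 79.0, 50.8, 34.8 and 47.8 CPM in WT, 99.8 and 74.4 CPM in Ercc1, and 58.3 and 58.4 CPM in NemoDK_Ercc1. Its change in Ercc1 was 0.71 ± 0.27 (adjusted p = 0.0962) and in NemoDK_Ercc1 0.14 ± 0.28 (adjusted p = 0.770). In Ercc1 it was called with WT mouse 1 omitted (0.99, adjusted p = 0.0146), by DESeq2 (0.73, adjusted p = 0.0497), without a filter on low counts (0.71, adjusted p = 0.0213) and with library size alone (0.99, adjusted p = 0.0225). Taldo1, transaldolase, had differences of 0.21 ± 0.11 (adjusted p = 0.190) and -0.024 ± 0.11 (adjusted p = 0.899), and Tkt, transketolase, of -0.14 ± 0.17 (adjusted p = 0.591) and -0.44 ± 0.17 (adjusted p = 0.110). With library size alone Taldo1 was called in Ercc1 (0.48, adjusted p = 0.0127).

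Neither gene of heme breakdown was called in the main fit. Hmox1, heme oxygenase, a target of NRF2 that the repressor BACH1 also controls, was 18.3, 26.1, 9.61 and 20.1 CPM in WT, 24.3 and 34.2 CPM in Ercc1, and 26.3 and 34.5 CPM in NemoDK_Ercc1. WT library 3 was the lowest, and WT library 2 lay above Ercc1 library 1. Its change was 0.66 ± 0.32 (adjusted p = 0.182) and 0.72 ± 0.32 (adjusted p = 0.158), and without WT library 3 it was 0.46 (adjusted p = 0.140) and 0.50 (adjusted p = 0.121). Blvrb, a biliverdin and flavin reductase, was 74.9 to 93.2 CPM in WT and 77.0 to 86.6 and 90.1 to 105 CPM in the mutant groups, with changes of -0.08 ± 0.13 (adjusted p = 0.701) and 0.17 ± 0.13 (adjusted p = 0.386). In NemoDK_Ercc1 Hmox1 was called without a filter on low counts (0.71, adjusted p = 0.0480), and with library size alone both Hmox1 (0.99, adjusted p = 0.0487) and Blvrb (0.44, adjusted p = 0.0429) were.

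In the main fit the members that remove superoxide and peroxide divided into the called glutathione peroxidases Gpx2 and Gpx4 and uncalled dismutases and catalase. Gpx4 (ENSMUSG00000075706, chr10:80047166-80056439), which reduces lipid hydroperoxides in membranes and protects against ferroptosis, was 166, 188, 165 and 175 CPM in WT, 317 and 297 CPM in Ercc1, and 284 and 317 CPM in NemoDK_Ercc1. Every mutant library lay above every WT library and the mutant groups overlapped. It rose by 0.82 ± 0.12 (adjusted p = 0.00284) and 0.79 ± 0.12 (adjusted p = 0.00378), and the second call ended with NemoDK_Ercc1 mouse 2 omitted (0.71, adjusted p = 0.0612). Reads could be split with the copy Gpx4-ps2, whose counts were 8.70 to 10.6% of those of Gpx4 in WT and 8.82 to 9.89% in the mutant libraries. Gpx2 (ENSMUSG00000042808, chr12:76792333-76795554), a glutathione peroxidase better known from gut epithelium, had 0 counts in all 4 WT libraries, 37 and 17 in Ercc1, and 19 and 12 in NemoDK_Ercc1. With WT set at 3 counts over the group it was at least 28.3-fold higher in Ercc1 (adjusted p = 0.00599) and at least 17.1-fold higher in NemoDK_Ercc1 (adjusted p = 0.0117). The second call ended without NemoDK_Ercc1 library 1 (adjusted p = 0.0808) or library 2 (0.0617). Its level stayed below that of every other called member, at 0.951 and 0.573 CPM over the pooled Ercc1 and NemoDK_Ercc1 libraries. The medians of the members were 0.40 and 0.12 also with Gpx2 at these bounds.

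Cat, catalase, was the most abundant member per kilobase in WT, at 3039.6, 2704, 3209 and 2496 CPM in WT, 1826 and 2387 CPM in Ercc1, and 2068 and 1951 CPM in NemoDK_Ercc1. All mutant libraries lay below every WT library. Its change was -0.44 ± 0.17 (adjusted p = 0.0941) in Ercc1 and -0.51 ± 0.17 (adjusted p = 0.0684) in NemoDK_Ercc1, not called by edgeR but called by DESeq2, at -0.43 (adjusted p = 0.0385) and -0.52 (adjusted p = 0.0122). Sod1, the cytosolic superoxide dismutase, was 791, 955, 695 and 757 CPM in WT, 669 and 619 CPM in Ercc1, and 639.9 and 662 CPM in NemoDK_Ercc1. Sod2, the mitochondrial one, was 163, 210.5, 167 and 184 CPM in WT, 149 and 131 CPM in Ercc1, and 139 and 154 CPM in NemoDK_Ercc1. For both, every mutant library lay below every WT library. Of all genes 21.3% lay below WT in the Ercc1 libraries taken alone and 22.1% in the NemoDK_Ercc1 libraries taken alone. The share below WT in both mutant groups at once was not computed. Sod1 differed from WT by -0.31 ± 0.15 (adjusted p = 0.184) and -0.30 ± 0.15 (adjusted p = 0.211), and Sod2 by -0.37 ± 0.14 (adjusted p = 0.0998) and -0.30 ± 0.14 (adjusted p = 0.176).

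**Figure D2:**
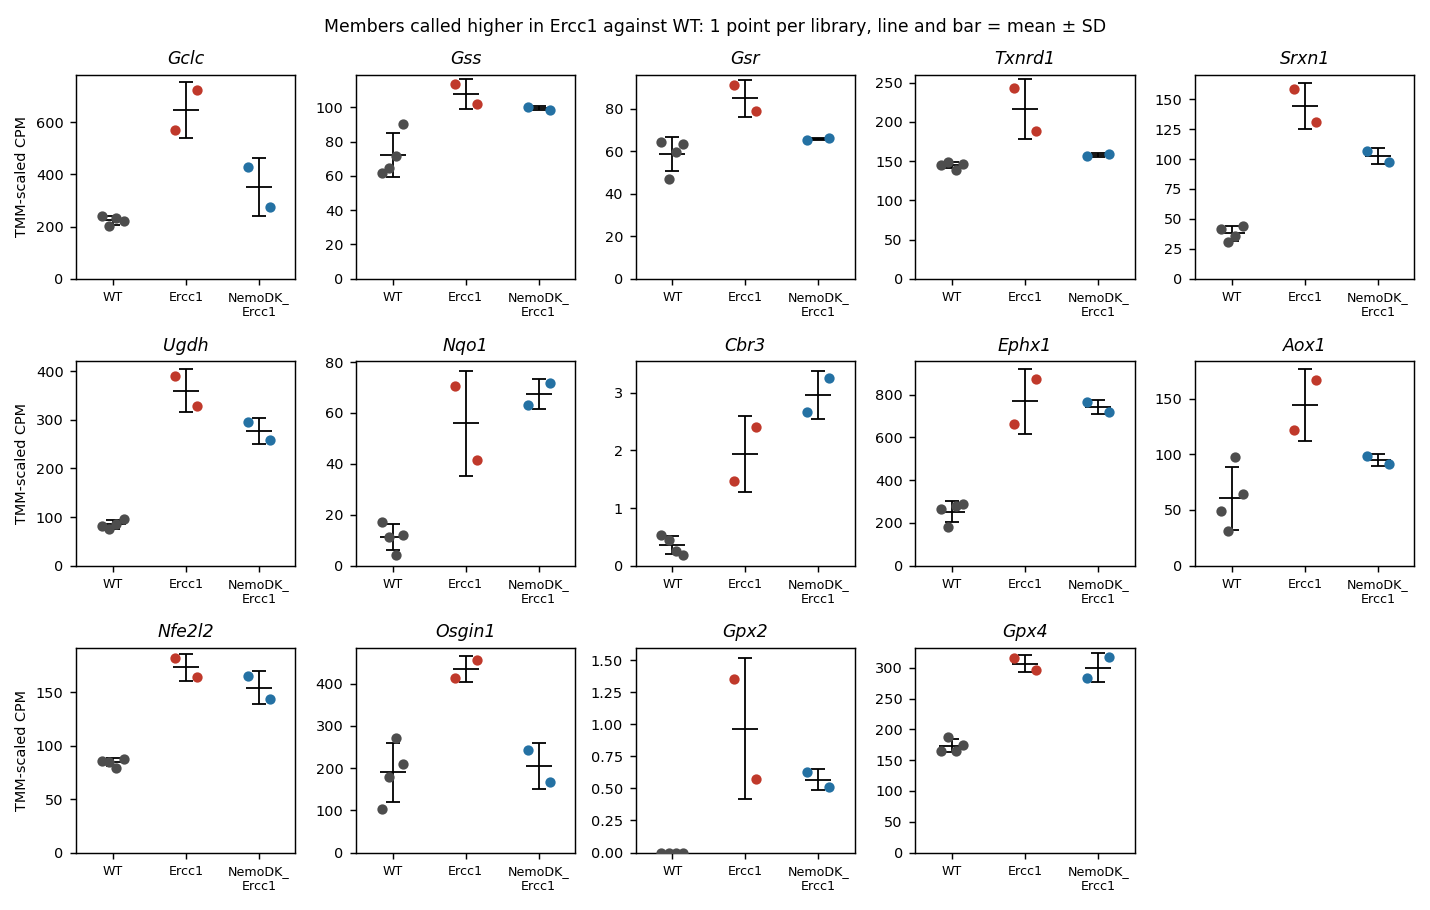
TMM-scaled CPM (linear axes from 0) of the 14 members called higher in Ercc1 against WT, 1 point per library, with the mean and SD of each group (WT n = 4, Ercc1 n = 2, NemoDK_Ercc1 n = 2). Nqo1, Ephx1, Gpx4 and Nfe2l2 reached similar levels in both mutant groups, while the NemoDK_Ercc1 points of Osgin1 lie within the WT range and those of Txnrd1 and Gsr just above it.

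Between the mutant groups no member passed the test. In NemoDK_Ercc1 against Ercc1 the main fit called 0 of 33 members and 0% of all genes. At an unadjusted p under 0.05 there were 4 members, Gclc, Txnrd1, Srxn1 and Osgin1, all lower in NemoDK_Ercc1, and 1062 of 15598 genes (6.81%). The differences were -0.88 ± 0.23 (adjusted p = 0.595) for Gclc, -0.45 ± 0.15 (adjusted p = 0.648) for Txnrd1, -0.49 ± 0.19 (adjusted p = 0.694) for Srxn1 and -1.08 ± 0.39 (adjusted p = 0.671) for Osgin1. DESeq2 called 1 member, Gclc, at -0.90 (adjusted p = 0.0362), among 33 higher and 36 lower genes. limma-voom called 0 members and 0 genes, and the same 4 members had an unadjusted p under 0.05.

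The fitted difference was negative for 24 of 33 members (72.7%) and for 46.8% of all genes, and the median of the members was -0.13, beside 0.022 over all genes. Both NemoDK_Ercc1 libraries lay below both Ercc1 libraries for 14 of 33 members (42.4%), as for 19.7% of all genes, and above them for 4 members, as for 23.1% of all genes. The 14 were Gclc, Gss, Gsr, Txn1, Txnrd1, Srxn1, G6pdx, Pgd, Taldo1, Tkt, Ugdh, Aox1, Sqstm1 and Osgin1, which include 3 of the 4 glutathione genes tested and 4 of 4 pentose phosphate genes. The 4 were Prdx6, Cbr3, Blvrb and Mafg. With age as a covariate the median difference was -0.020. Both Ercc1 mice were older than both NemoDK_Ercc1 mice, so that an estimate with age in the fit rests on the spread of ages within groups. Ephx1, Gpx4 and Nqo1 had differences of -0.053 ± 0.24, -0.03 ± 0.14 and 0.27 ± 0.48, and the libraries of the mutant groups overlapped for each.

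**Figure D3:**
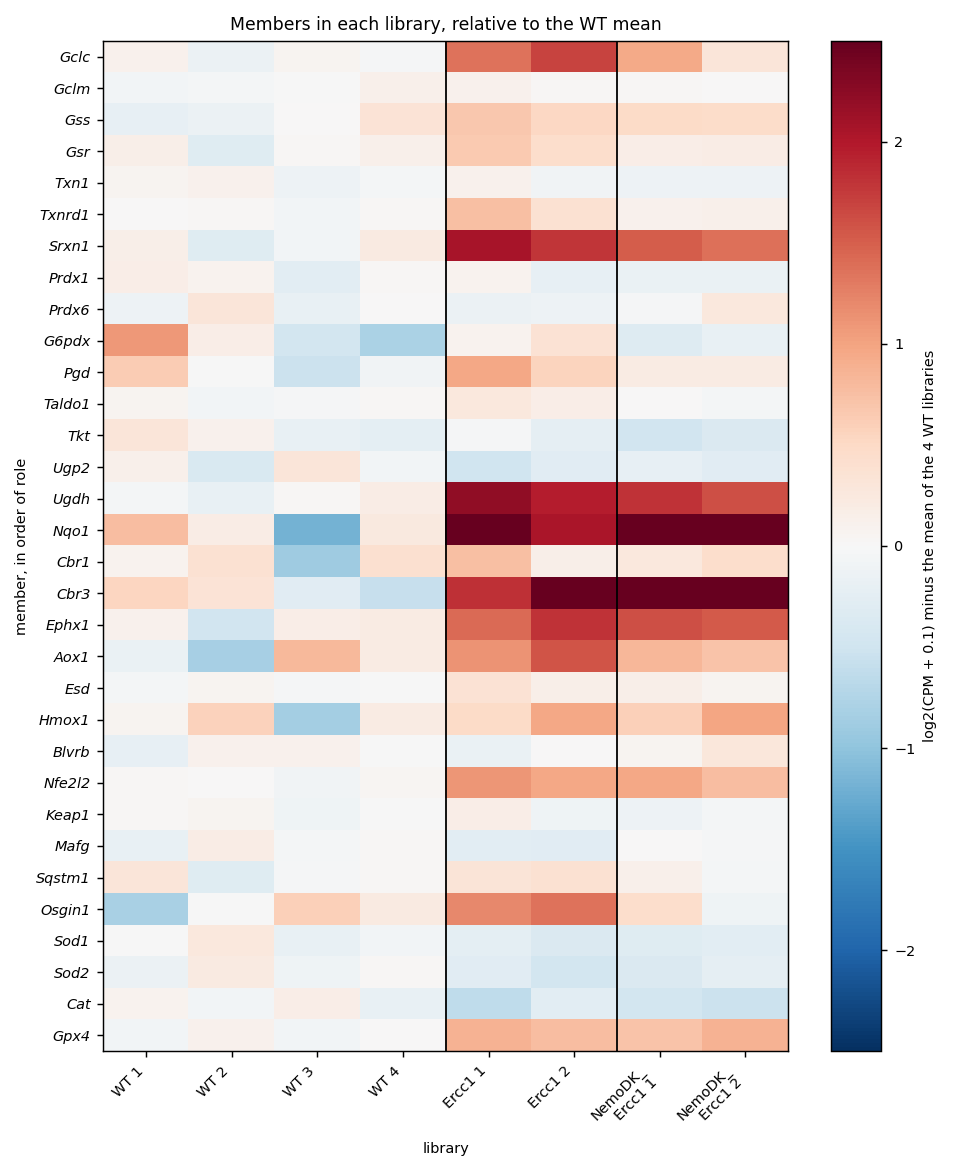
Log2(CPM + 0.1) of 32 members in each of the 8 libraries minus the mean of the 4 WT libraries, in order of role, with colours limited at 2.5 in either direction. The mutant columns are red for Srxn1, Ugdh, Nqo1, Cbr3, Ephx1, Nfe2l2 and Gpx4, and the Gclc and Osgin1 rows are darker in the Ercc1 columns than in the NemoDK_Ercc1 columns. WT library 3 is blue for Nqo1, Cbr1 and Hmox1.

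Other genes of the pathway were read from 6 further lists, some sharing a gene, as Slc48a1 is in the lists of NRF2 targets and of heme genes. With age as a covariate no gene named from these lists for its call in Ercc1 kept that call, and none changed sign. The lowest adjusted p by edgeR was then 0.195, for Msra. Over all genes 24 were called higher and 17 lower under that covariate. Among 27 other reported NRF2 targets 10 were called higher and 1 lower in Ercc1, where 11.3% and 9.5% of all genes were. In NemoDK_Ercc1 9 were called higher and 1 lower, where 10.6% and 7.4% of all genes were. The list medians were 0.56 and 0.40, beside -0.0010 and 0.0034 over all genes. Entpd5, a nucleotide diphosphatase of the endoplasmic reticulum, rose by 1.29 ± 0.13 (adjusted p = 6.51e-04) in Ercc1 and 1.07 ± 0.13 (adjusted p = 0.00158) in NemoDK_Ercc1. Ptgr1, which reduces prostaglandins and reactive alkenals, was 4.02, 2.37, 2.53 and 2.78 CPM in WT, 20.9 and 11.7 CPM in Ercc1, and 11.9 and 11.4 CPM in NemoDK_Ercc1. It rose by 2.48 ± 0.26 (adjusted p = 8.80e-04) and 2.0 ± 0.27 (adjusted p = 0.00238). Ddit4l, an inhibitor of mTOR signaling, rose by 2.80 ± 0.37 (adjusted p = 0.00206) and 2.52 ± 0.37 (adjusted p = 0.00379) from a low level. The gene called lower in Ercc1 was Ugt1a6a, a transferase that uses the UDP-glucuronate made by Ugdh and shares exons with its neighbours, so that its counts are less certain. It was 14.8, 17.5, 13.3 and 14.4 CPM in WT, 7.18 and 8.18 CPM in Ercc1, and 10.9 and 10.5 CPM in NemoDK_Ercc1. Its fall in Ercc1 was -0.96 ± 0.15 (adjusted p = 0.00385), and the change in NemoDK_Ercc1 was -0.48 ± 0.15 (adjusted p = 0.0524), called with WT mouse 3 omitted (-0.54, adjusted p = 0.0338). In NemoDK_Ercc1 the gene called lower was Idh1, a cytosolic NADPH-forming dehydrogenase (-0.53 ± 0.16, adjusted p = 0.0488), named after its values were seen and not recomputed with libraries left out.

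Of 17 genes tested that control NRF2, 0 were called higher and 3 lower in Ercc1, where 11.3% and 9.5% of all genes were. In NemoDK_Ercc1 0 were called higher and 2 lower, where 10.6% and 7.4% of all genes were. The 3 in Ercc1 included the acetyltransferase coactivators Crebbp (-0.69 ± 0.10, adjusted p = 0.00330) and Ep300 (-0.72 ± 0.18, adjusted p = 0.0235). The other was Bach1, the heme-sensing repressor that competes with NRF2 for its sites (-0.69 ± 0.21, adjusted p = 0.0484). The Ep300 call ended with Ercc1 mouse 1 or Ercc1 mouse 2 omitted (-0.76 to -0.68, adjusted p 0.0891 to 0.135). The Bach1 call ended with WT mouse 2, WT mouse 4, Ercc1 mouse 1, Ercc1 mouse 2, NemoDK_Ercc1 mouse 1 or NemoDK_Ercc1 mouse 2 omitted (-0.91 to -0.51, adjusted p 0.0738 to 0.269). Bach1 was 27.5, 35.9, 47.4 and 34.5 CPM in WT, 19.4 and 25.6 CPM in Ercc1, and 32.2 and 33.8 CPM in NemoDK_Ercc1, so that the Ercc1 libraries lay below all WT libraries and the NemoDK_Ercc1 libraries within their range. With library size alone in place of TMM the falls of Ep300 (-0.45, adjusted p = 0.0926) and Bach1 (-0.43, adjusted p = 0.169) in Ercc1 were not called. Crebbp was also called lower in NemoDK_Ercc1, though not with library size alone (-0.30, adjusted p = 0.0607). Ep300 was not called in NemoDK_Ercc1, except without a filter on low counts (-0.51, adjusted p = 0.0464).

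Of 20 other thioredoxin, peroxiredoxin and glutaredoxin genes 1 was called higher and 5 lower in Ercc1, where 11.3% and 9.5% of all genes were, and 0 and 4 in NemoDK_Ercc1, where 10.6% and 7.4% were. The list medians were -0.11 and -0.049, and 8 and 9 of the 20 estimates were positive. Txnrd2, the mitochondrial thioredoxin reductase, was 52.0, 46.2, 43.9 and 46.1 CPM in WT, 24.4 and 26.3 CPM in Ercc1, and 24.5 and 25.8 CPM in NemoDK_Ercc1. Its mutant libraries were all near the same level and below WT, with falls of -0.89 ± 0.11 (adjusted p = 0.00155) and -0.91 ± 0.11 (adjusted p = 0.00168). The ratio of Txnrd1 to Txnrd2 counts was 2.79 to 3.22 over WT livers, 9.99 and 7.19 for Ercc1, then 6.40 and 6.17 for NemoDK_Ercc1. Msra, which repairs oxidised methionine, fell by 0.95 ± 0.13 (adjusted p = 0.00197) and by 0.95 ± 0.13 (adjusted p = 0.00233). Txnrd3, a further reductase, changed by -0.74 ± 0.18 (adjusted p = 0.0211) in Ercc1, a call that ended with Ercc1 mouse 1 omitted (-0.56, adjusted p = 0.144) and with library size alone (-0.48, adjusted p = 0.0788). Sesn3, a sestrin, was the gene called higher, at 0.47 ± 0.13 (adjusted p = 0.0350), which ended with WT mouse 2, WT mouse 4, Ercc1 mouse 1 or Ercc1 mouse 2 omitted (0.43 to 0.49, adjusted p 0.0621 to 0.149).

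**Figure D4:**
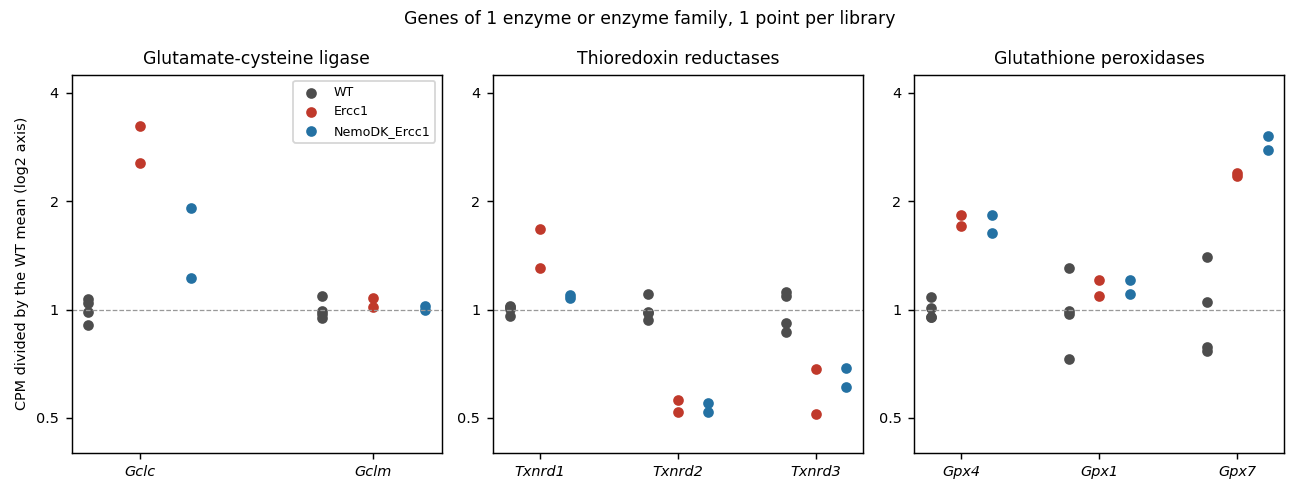
CPM of each library divided by the WT mean of that gene (log2 axis), for both subunits of glutamate-cysteine ligase, 3 thioredoxin reductases and 3 glutathione peroxidases. Gclc rose without a call for Gclm; Txnrd1 lay above WT where Txnrd2 and Txnrd3 lay below; Gpx4 and Gpx7 rose while the abundant Gpx1 overlapped WT.

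Among 17 other glutathione and peroxide genes 1 was called higher and 1 lower in Ercc1, where 11.3% and 9.5% of all genes were. In NemoDK_Ercc1 1 was called higher and 3 lower, where 10.6% and 7.4% of all genes were. Gpx7, a glutathione peroxidase of the endoplasmic reticulum, was 1.40, 2.57, 1.44 and 1.93 CPM in WT, 4.40 and 4.31 CPM in Ercc1, and 5.59 and 5.08 CPM in NemoDK_Ercc1. It rose by 1.25 ± 0.26 (adjusted p = 0.0118) and 1.54 ± 0.25 (adjusted p = 0.00583). The first call ended with Ercc1 mouse 1 or Ercc1 mouse 2 omitted (1.23 to 1.26, adjusted p 0.0517 to 0.0690) and the second with NemoDK_Ercc1 mouse 1 omitted (1.47, adjusted p = 0.0645). Chac2, which degrades glutathione, fell by 0.57 ± 0.10 (adjusted p = 0.00711) in Ercc1, but was not called with library size alone (-0.30, adjusted p = 0.0664). Gpx1, the main hepatic glutathione peroxidase, was 1360.0 to 2439 CPM in WT and 2041 to 2254 and 2062 to 2252 CPM in the mutant groups (0.20 ± 0.21 and 0.21 ± 0.21, not called). It was named after its values were seen, as the counterpart of Gpx4.

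The list of other NADPH-forming genes also held genes that form no NADPH themselves, such as Shpk. Over all genes 11.3% were called higher and 9.5% lower in Ercc1, and 10.6% and 7.4% in NemoDK_Ercc1. Of the 16 genes of that list that were tested, 2 were called higher and 2 lower in each mutant group. In Ercc1 they were Mthfd2 (1.52 ± 0.32, adjusted p = 0.0127) and Idh2 (0.72 ± 0.19, adjusted p = 0.0304), both mitochondrial enzymes, and on the lower side Mthfd1 (-0.61 ± 0.14, adjusted p = 0.0178), a cytosolic folate enzyme, and Shpk (-0.53 ± 0.14, adjusted p = 0.0280), sedoheptulokinase. The Mthfd2 call ended with Ercc1 mouse 1 omitted (1.0, adjusted p = 0.126), and the Idh2 call with WT mouse 4, Ercc1 mouse 1, Ercc1 mouse 2, NemoDK_Ercc1 mouse 1 or NemoDK_Ercc1 mouse 2 omitted (0.57 to 0.85, adjusted p 0.0547 to 0.196). The Mthfd1 call ended with Ercc1 mouse 1 or Ercc1 mouse 2 omitted (-0.62 to -0.60, adjusted p 0.0797 to 0.104), and the Shpk call with WT mouse 1, WT mouse 2, Ercc1 mouse 1, Ercc1 mouse 2, NemoDK_Ercc1 mouse 1 or NemoDK_Ercc1 mouse 2 omitted (-0.61 to -0.46, adjusted p 0.0513 to 0.168). With library size alone neither Mthfd1 (-0.34, adjusted p = 0.0824) nor Shpk (-0.26, adjusted p = 0.147) was called. Beside the same shares of all genes, 2 of 15 other heme genes were called higher in Ercc1 and 1 in NemoDK_Ercc1, with 0 lower in both. In Ercc1 they were the heme transporters Slc48a1 (0.68 ± 0.13, adjusted p = 0.00884) and Flvcr1 (0.81 ± 0.17, adjusted p = 0.0138). The first call ended with Ercc1 mouse 2 omitted (0.61, adjusted p = 0.0606) and the second with Ercc1 mouse 1 omitted (0.76, adjusted p = 0.0858).

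Markers of several cell types moved with the genotypes. The counts called stand beside 11.3% higher and 9.5% lower over all genes in Ercc1, and 10.6% and 7.4% in NemoDK_Ercc1. The summed level of 10 hepatocyte markers was 129789 to 166465 CPM in WT, 102393 to 106920 in Ercc1 and 101715 to 102710 in NemoDK_Ercc1, with 5 of 10 genes called lower and 1 higher in each mutant group. The 12 monocyte and recruited macrophage markers summed to 90.2 to 116 CPM in WT, 173 to 251 in Ercc1 and 223 to 243 in NemoDK_Ercc1, with 10 and 9 of 12 called higher. The 9 Kupffer cell markers overlapped between groups, at 441 to 739, 470.4 to 765 and 752 to 801 CPM, except that NemoDK_Ercc1 lay above WT. Of these 9, 1 was called higher and 1 lower in Ercc1, and 2 higher and 1 lower in NemoDK_Ercc1. The 8 cholangiocyte markers summed to 51.6 to 56.0, 63.8 to 68.5 and 72.5 to 81.6 CPM, with 2 of 7 tested called higher in each. Spp1 is in this list and also in that of monocytes and recruited macrophages, so the 2 sums share that gene. The 9 neutrophil markers summed to 0.965 to 1.74 CPM in WT, 4.21 to 6.23 in Ercc1 and 2.29 to 2.56 in NemoDK_Ercc1, and Camp and Ly6g were at 0 in WT. Only 3 of the 9 were tested, with 2 called higher in Ercc1 and 0 in NemoDK_Ercc1. The 8 lymphocyte markers summed to 6.95 to 7.60, 7.81 to 16.5 and 17.8 to 19.2 CPM, with 0 and 4 called higher. For 7 sinusoidal endothelial markers the sums were 264 to 294, 215 to 261 and 237 to 268 CPM, and for 8 stellate cell markers 211 to 289, 224 to 367 and 325 to 333 CPM. In each mutant group 1 endothelial marker was called higher and 1 lower, and 1 stellate cell marker higher and 0 lower. The 6 erythroid markers in the table summed to 198 to 394, 105 to 139 and 88.2 to 213 CPM. Of 5 tested, 0 were called higher in either mutant group, with 1 lower in Ercc1 and 0 in NemoDK_Ercc1. The 6 acinar markers summed to 33.6 to 66.1, 13.4 to 14.8 and 10.4 to 13.3 CPM, with Cpa1 and Pnlip at 0 in every group. Only 1 acinar marker was tested, and it was called lower in both mutant groups. The part of these shifts in the member changes was not tested.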

How the data were processed

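Total RNA from 8 livers, 1 library per mouse, was prepared with a stranded kit, per the labels' protocols. HISAT2 (version 2.1.0), featureCounts and FastQC with the build GRCm38 (mm10) are named in the submitters' processing notes. The strand setting, annotation release and treatment of multi-mapping reads are not given in the sources used here. The deposited values were raw counts per gene, with no row other than genes.

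Genes were filtered with filterByExpr (15598 of 55487 kept), scaled with TMM and fitted with edgeR 4.0.16 (quasi-likelihood, all 8 libraries, group only, residual df 5) in R 4.3.3, with Benjamini-Hochberg adjustment over all genes tested. The common biological coefficient of variation was 0.227. The fit was tested on simulated data. CPM are computed from the counts with the same factors. DESeq2 1.42.0, limma 3.58.1 and other scalings, filters and left-out libraries were alternatives. Gene coordinates and exon lengths come from GENCODE M21 (GRCm38), where 55227 of 55487 table IDs were found.

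Groups of 2 mice limit the precision. The members and lists were chosen with earlier results of these data known. Values in every library are given for called members and regulators; from each further list up to 4 called genes are named, in order of p in Ercc1 against WT.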

Additional observations from a re-analysis of the deposited data

How the results depend on the processing

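Over the members, 1680 values were computed under other settings; 49 lost a call and 18 gained one. The other 1613 stayed on their side of the threshold, 1541 with the same sign and 72 with the opposite sign. None of those 72 was called under either setting, and 0 called values reversed. In Ercc1 against WT the count called higher was 0 with age as a covariate and 9 at a threshold of 0.01, and the count called lower was 2 at 0.1 and 1 with DESeq2 (Cat), which also called Pgd higher. Its median was 0.47 with upper-quartile factors, 0.67 with library size alone, 0.47 without a filter and 0.24 with age as a covariate. With 1 library left out the count called higher ranged from 8 to 14 and the median from 0.34 to 0.53. In NemoDK_Ercc1 against WT the count called lower was 1 at a threshold of 0.1 and 1 with DESeq2 (Cat), and the median was 0.22 with upper-quartile factors, 0.39 with library size alone and 0.17 with limma-voom. In NemoDK_Ercc1 against Ercc1 DESeq2 called 1 lower (Gclc), and the median was -0.020 with age as a covariate and -0.25 to -0.051 with 1 library left out. Over all genes in that comparison the main fit called 0, and DESeq2 called 33 higher and 36 lower. Without a filter edgeR called 28 higher and 37 lower, and with only the 2 groups compared 1 higher and 0 lower. Library size alone moved the median of all genes by 0.26 and 0.27 against WT, and upper-quartile factors by 0.072 and 0.10, so their higher medians are relative to that shift. The cause of the other changes was not tested. The letters of the response element were found in 33.3% of members and 13.99% of genes, and in the other form in 20.0% and 15.7%. No paired analysis was possible because the replicate numbers were given in accession order and the labels pair no mice. Groups of 2 limit which changes could pass.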
